A study of Homo sapiens with 6 samples.

Results

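Protocadherins are cell surface proteins of the cadherin superfamily, and their genes were followed here in 2 human cell lines. The members were all genes of the deposited table whose symbol starts with PCDH, with antisense genes and annotated pseudogenes left out. This gave 66 of 58884 genes, of which 53 lie in the PCDHA, PCDHB and PCDHG clusters and 13 are non-clustered. KYSE70 is an established esophageal squamous cell carcinoma (ESCC) line that carries a mutant NFE2L2, the gene of the transcription factor NRF2. NRF2null-KYSE70 is 1 clone of KYSE70, grown after CRISPR-Cas9 cutting of NFE2L2 with a guide to exon 2. Both lines were untreated and grown in RPMI1640 with 10% FBS, and RNA-seq was run on 3 libraries of each. The paper reports a faint, smaller NRF2 band in this clone and states that some NRF2 remained. The comparison thus set 1 clone against the uncloned parent, and differences that came with the cut in NFE2L2 and with cloning cannot be told apart.

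Most mammalian protocadherins fall into 3 gene clusters arranged in tandem. In the PCDHA and PCDHG clusters, each gene contributes 1 variable first exon with its own promoter, which is spliced to constant exons shared by the whole cluster, whereas the PCDHB genes have no constant exons. In neurons, single cells switch on different sets of these promoters through CTCF, cohesin and DNA methylation, and the proteins on neighbouring cells pair with their own kind, which lets a neuron tell itself from others. The C-type genes at the end of the PCDHA and PCDHG clusters are regulated apart from the rest. Non-clustered protocadherins (PCDH1, PCDH7, PCDH18, PCDH19 and others) are found in many tissues, epithelia included, and act in adhesion and signalling.

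Promoter sequences are shown first for some of the clustered genes that differed between the lines (PCDHAC2, PCDHAC1, PCDHGB5 and PCDHGB7). PCDHAC1 was too low to be tested, and PCDHGB2, which also differed, is not shown. Sequences are also given for PCDHGB4, a neighbour of PCDHGB5 that was near 0 in both lines, and for PCDHGC3, the most abundant clustered gene. Each line below gives the 150 bases on the plus strand that precede the start of the gene, from RefSeq on GRCh38.p14, cut at whichever of the RefSeq and GENCODE starts lies further upstream. Capitals mark CGCNGTNGG, a form of the conserved element of PCDHG promoters that was noticed in these windows and then searched on both strands.

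PCDHAC2, chr5:140966320-140966469: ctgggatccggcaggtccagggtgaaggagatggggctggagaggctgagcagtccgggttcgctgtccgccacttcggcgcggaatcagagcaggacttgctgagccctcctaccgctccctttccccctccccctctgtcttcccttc
PCDHAC1, chr5:140926149-140926298: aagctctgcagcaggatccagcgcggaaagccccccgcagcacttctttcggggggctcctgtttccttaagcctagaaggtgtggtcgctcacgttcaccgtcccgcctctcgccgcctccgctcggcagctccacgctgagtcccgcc
PCDHGB5, chr5:141397797-141397946: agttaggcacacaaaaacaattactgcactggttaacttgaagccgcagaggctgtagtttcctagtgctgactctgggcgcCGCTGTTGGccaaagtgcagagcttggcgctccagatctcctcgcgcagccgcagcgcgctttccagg
PCDHGB4, chr5:141387548-141387697: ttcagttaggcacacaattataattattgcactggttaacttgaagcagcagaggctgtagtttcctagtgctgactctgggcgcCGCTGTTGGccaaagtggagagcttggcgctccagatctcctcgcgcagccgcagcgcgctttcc
PCDHGB7, chr5:141417495-141417644: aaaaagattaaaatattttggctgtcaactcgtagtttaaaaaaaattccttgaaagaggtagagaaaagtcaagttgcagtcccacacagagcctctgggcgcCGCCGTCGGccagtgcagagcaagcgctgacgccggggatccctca
PCDHGC3, chr5:141475797-141475946: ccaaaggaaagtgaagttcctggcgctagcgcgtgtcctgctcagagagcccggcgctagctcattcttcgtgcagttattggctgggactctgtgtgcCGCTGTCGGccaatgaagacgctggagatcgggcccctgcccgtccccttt

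The windows of PCDHGB5 and its neighbour PCDHGB4 were nearly the same. With 1 window shifted by 3 bases, 141 of 147 aligned bases were identical (95.9%). The windows of PCDHAC1 and PCDHAC2 did not hold the capital letters. RefSeq windows were found for 58 of the 66 members (67 windows of 250 bases before the start). CGCNGTNGG occurred in 7 of 25 PCDHG windows (28%), which belonged to PCDHGB2, PCDHGB4, PCDHGB5, PCDHGB6, PCDHGB7 and PCDHGC3. The 2 windows of PCDHGB5 overlap and hold the same copy. It occurred in none of the 13 PCDHA, 14 PCDHB and 15 non-clustered windows, and in 3.96% of all 34943 windows. CGCNGTNGG was picked from windows counted here, so its higher share among PCDHG windows is no support for a link to them. Its 4-letter core CGCT, which some of these matches contain, was found in 50 of 52 windows of clustered genes (96.2%) against 64.7% of all windows. Among non-clustered members, 11 of 15 windows held it (73.3%). CGCT belongs to the element noticed in these windows, so its share is no support for a link either. TGACNNNGC, a form of the antioxidant response element that NRF2 binds, was found in 1 member's window, that of PCDHA6, and in 10.9% of all windows. AGGGGGC, a part of the CTCF motif, was found in 1 window, that of PCDH9, and in 13.3% of all windows. It is only a short part of that motif, so a window without it can still hold a CTCF site. These are matches of letters and not binding sites.

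Reads were sparse for most members. A read was found in none of the 6 libraries for 14 members, and 25 members never had more than 3 reads in a library. Each library held 52072801 to 63975313 reads on genes, and 4349 to 6099 of them fell on protocadherins. The test covered the 14 members with a mean of at least 10 normalized counts, which are gene read counts scaled by a size factor for each library. PCDH1, PCDH7, PCDH18, PCDH19 and PCDHGC3 together held 93.1% to 94.3% of all protocadherin reads in KYSE70 and 89.8% to 92.1% in NRF2null-KYSE70. In bulk RNA, fewer cells that express a gene and less RNA per cell cannot be told apart.

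**Figure D1:**
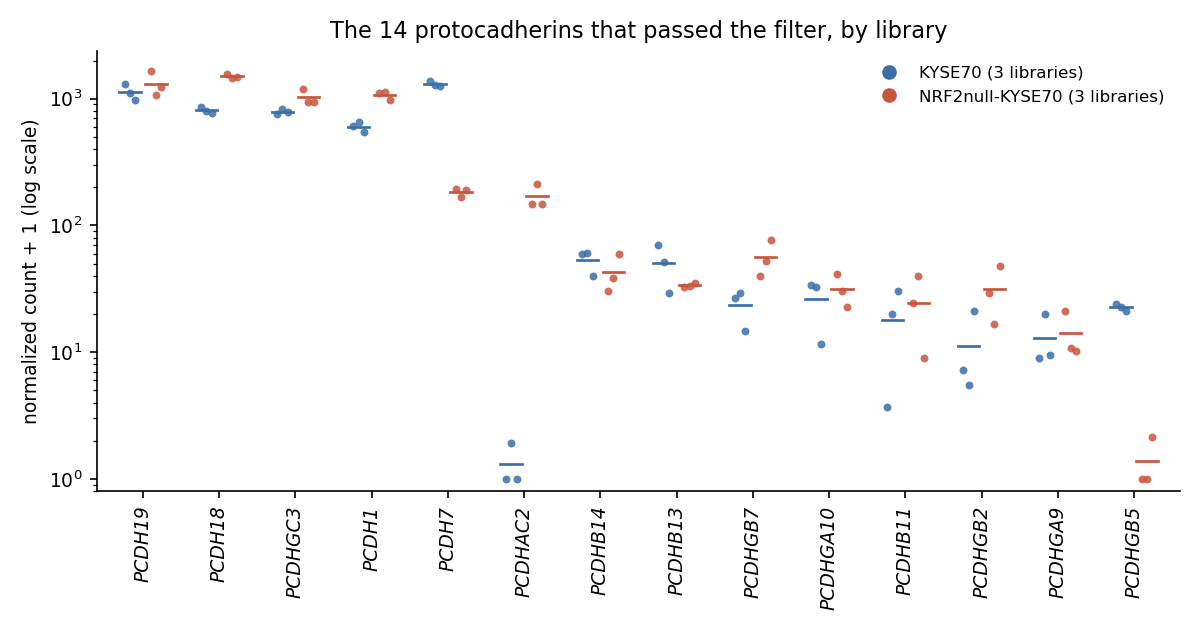
Normalized counts plus 1 (log scale) of the 14 protocadherins with a mean of at least 10, for each library (points) with the mean of each line (bars). PCDHAC2 is near 0 in KYSE70 and above 140 in NRF2null-KYSE70, PCDHGB5 shows the opposite order, and PCDH7 is lower in all NRF2null-KYSE70 libraries.

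Of the 14 tested members, 3 were higher in NRF2null-KYSE70 at an adjusted p under 0.05 and a fold change of at least 2 (limma, Benjamini-Hochberg over 15994 genes), where 7.23% of all tested genes were. These were PCDHAC2, PCDHGB2 and PCDHGB7. Lower by the same rule were 2 members, PCDH7 and PCDHGB5, against 7.43% of all tested genes. PCDHAC2 and PCDHGB5 reached the minimum mean through 1 line only and so had to differ, and the count of members is not evidence about the family. Without the fold cut-off, 6 members were higher (29.3% of all tested genes) and 2 were lower (28.3%), and 6 did not pass. The median log2 fold change of the 14 was 0.38, against -0.01 for all tested genes.

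**Figure D2:**
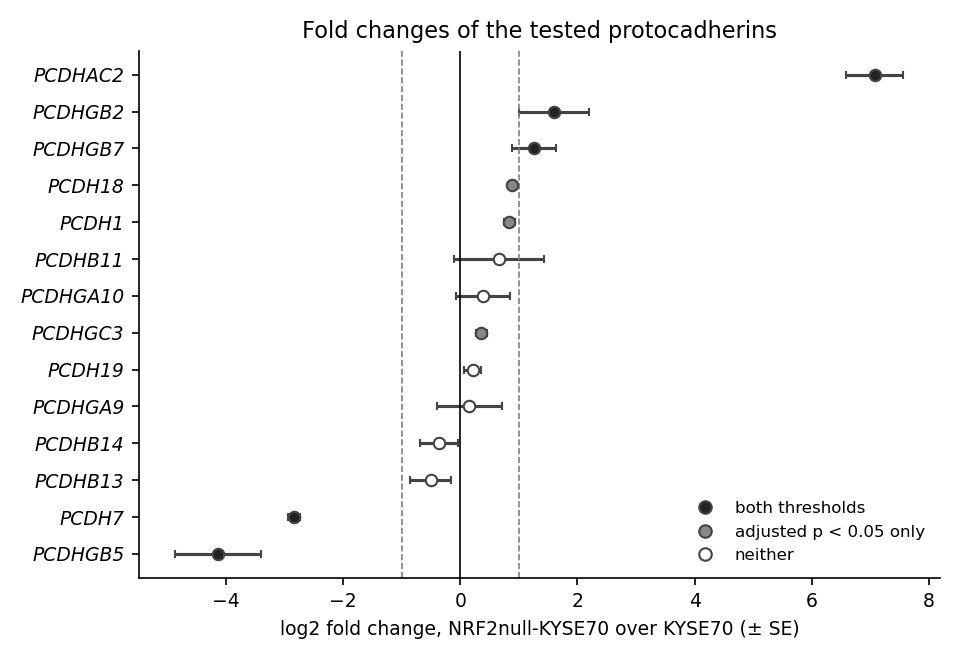
Log2 fold change (NRF2null-KYSE70 over KYSE70, with the SE as bars) of the 14 tested protocadherins, with dashed lines at a 2-fold change. Black points passed both thresholds, grey points (PCDH18, PCDH1 and PCDHGC3) passed the adjusted p only, and open points passed neither.

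The PCDHA cluster had 1 read in KYSE70 and 540 in NRF2null-KYSE70, nearly all from its C-type genes. PCDHAC2 (ENSG00000243232, hg38 chr5:140966470-141012347) had normalized counts of 0, 0.907 and 0 in KYSE70 and 147, 212 and 146 in NRF2null-KYSE70. The groups did not overlap, and the KYSE70 libraries held 1 read in all against 489. The ratio from these reads was 539 (95% interval 96.3 to 21300, counting error only), and the log2 fold change was 7.07 ± 0.49 (SE, adjusted p = 8.47e-08, limma). That value depended on the 1 added to each count before the log, and was 9.58 with 0.1 added and 5.01 with 5. A long noncoding RNA is annotated across the start of PCDHAC2 on the opposite strand, and it was listed at 0 in all 6 libraries.

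PCDHAC1 (ENSG00000248383), the other C-type gene of this cluster, had no read in KYSE70 and normalized counts of 21.3, 16.7 and 7.99 in NRF2null-KYSE70. Every NRF2null-KYSE70 library was thus above every KYSE70 library, and the level was at least 5.51-fold higher with 3 reads per library as the floor. Its mean of 7.66 lay under the minimum of the test. With no minimum it passed (log2 fold change 3.93, adjusted p = 0.000228, limma). It then entered the test through NRF2null-KYSE70 only and so had to differ, and that result adds no support. PCDHAC1 was singled out after its values were seen.

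None of the 13 other PCDHA genes had a read in KYSE70, and 10 of the 13 had none in either line. PCDHA1, PCDHA8 and PCDHA10 had 4, 1 and 1 reads over the 3 NRF2null-KYSE70 libraries. PCDHA1 has only 7 exonic bases that no other annotated gene covers, so its reads are uncertain. The summed PCDHA level was 0.302 ± 0.524 (SD, n = 3) in KYSE70 and 186 ± 39.1 in NRF2null-KYSE70. PCDHAC2 gave 84.8%, 92.3% and 94.8% of the PCDHA reads in the NRF2null-KYSE70 libraries (exact 95% intervals 78.5% to 89.8%, 88.1% to 95.4% and 89.6% to 97.9%). The PCDHA cluster took 2.8% to 4.33% of all protocadherin reads in that line.

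**Figure D3:**
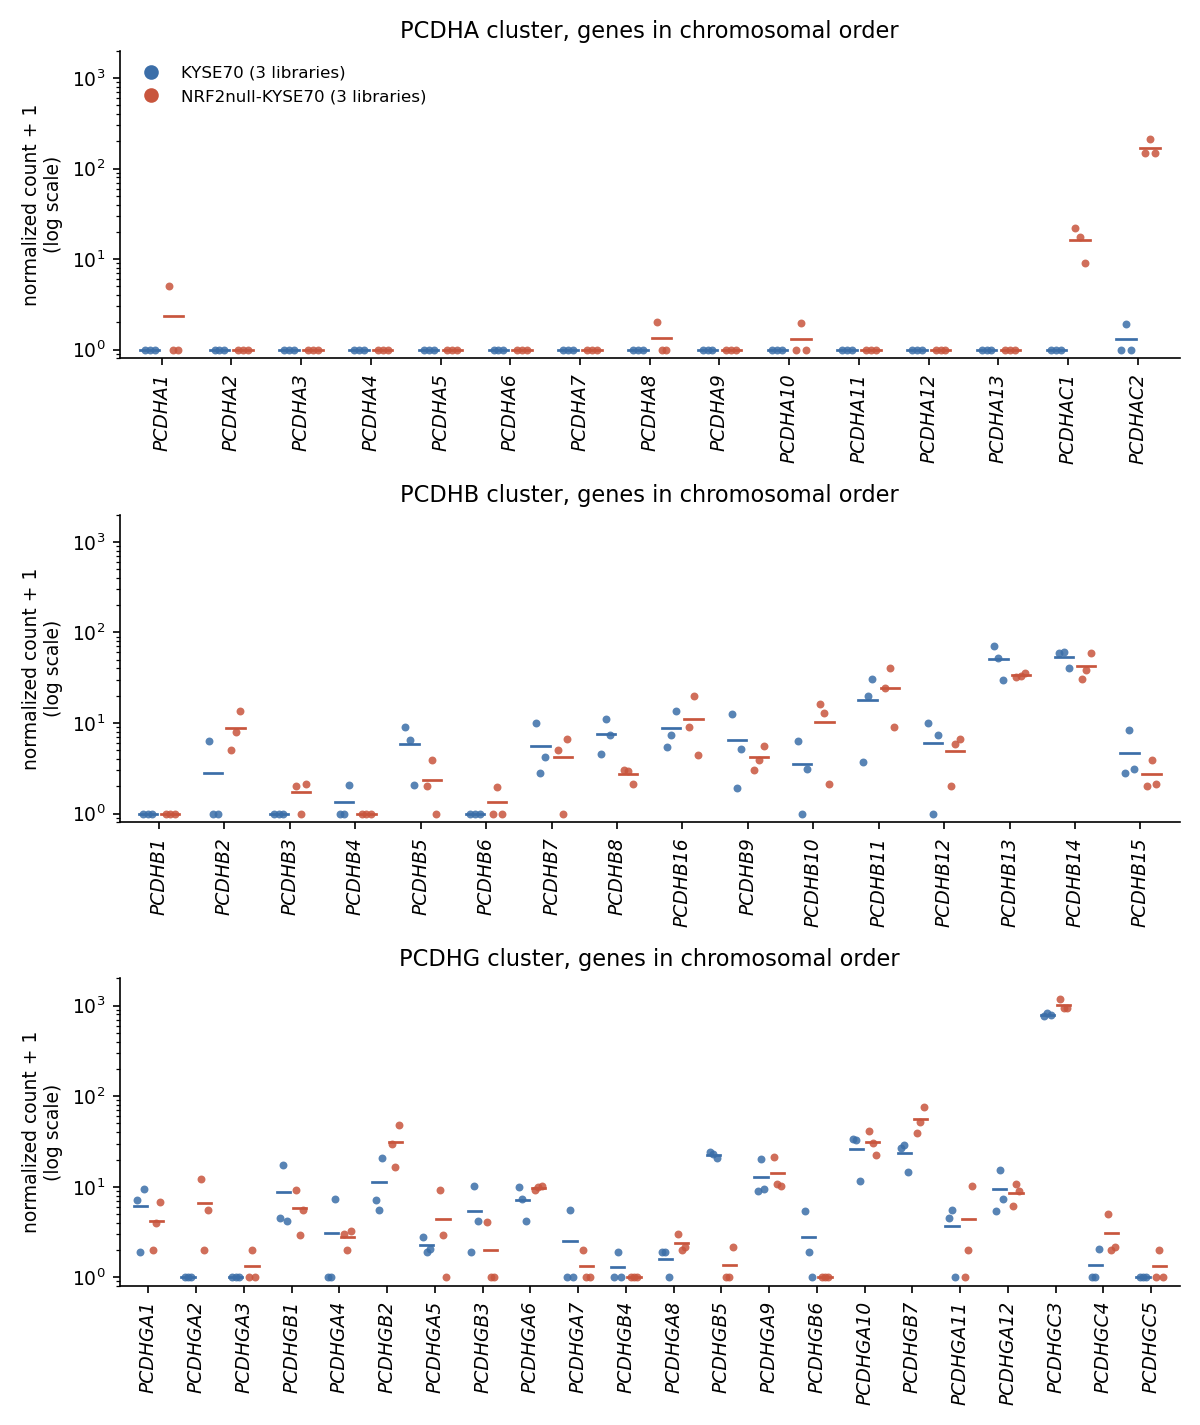
Normalized counts plus 1 (log scale) of the 53 clustered protocadherins in chromosomal order, for each library (points) with line means (bars). Reads in the PCDHA cluster are almost all from its last 2 genes and from NRF2null-KYSE70, the PCDHB genes are low in both lines, and PCDHGC3 stands above the rest of the PCDHG cluster in both.

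The PCDHG cluster was dominated by 1 gene in both lines, and single genes around it moved in opposite directions. PCDHGC3 (ENSG00000240184), a C-type gene, had normalized counts of 763, 825 and 784 in KYSE70 and 1194, 940 and 936 in NRF2null-KYSE70. All NRF2null-KYSE70 libraries were above those of KYSE70, with a log2 fold change of 0.36 ± 0.0992 (SE, adjusted p = 0.00708, limma), under the 2-fold cut-off. After subtracting the median change of its chromosome arm the adjusted p was 0.052. It gave 83.3% to 88.1% of PCDHG reads in KYSE70 and 82.4% to 87.2% in NRF2null-KYSE70. The other 2 C-type genes of this cluster, PCDHGC4 and PCDHGC5, had 1 and 0 reads over the KYSE70 libraries and 6 and 1 over those of NRF2null-KYSE70.

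PCDHGB5 (ENSG00000276547, hg38 chr5:141397947-141512975) was found almost only in KYSE70. Its normalized counts were 23.1, 21.8 and 20 in KYSE70 and 0, 0 and 1.14 in NRF2null-KYSE70, or 69 reads against 1. The KYSE70 libraries were close to each other and none overlapped the other line. The ratio from the reads was 62.6-fold lower (95% interval 10.9 to 2510, counting error only), and the log2 fold change was -4.13 ± 0.732 (SE, adjusted p = 0.000348, limma). With 0.1 in place of 1 added to each count it was -6.55, and with 5 added it was -2.31. PCDHGB4, whose promoter window was nearly identical, had 1 read over KYSE70 and 0 over NRF2null-KYSE70.

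PCDHGB7 (ENSG00000254122), which lies downstream of PCDHGB5, had normalized counts of 25.8, 28.1 and 13.7 in KYSE70 and 38.5, 51 and 75.4 in NRF2null-KYSE70. The groups did not overlap, with a log2 fold change of 1.26 ± 0.379 (SE, adjusted p = 0.0126, limma). Without the third KYSE70 library the log2 fold change was 0.95, and without the third NRF2null-KYSE70 library the adjusted p was 0.0662, so the call rested on each of these.

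PCDHGB2 (ENSG00000253910) had normalized counts of 6.23, 4.54 and 20 in KYSE70 and 28.4, 15.7 and 46.8 in NRF2null-KYSE70. The groups overlapped, since the third KYSE70 library was above the second of NRF2null-KYSE70. The fitted change of PCDHGB2 was 1.60 ± 0.592 on the log2 scale (SE, adjusted p = 0.0345, limma). This call was lost with no minimum, without the trend, after arm-centring and without any 1 of 4 libraries, with adjusted p from 0.0501 to 0.15, as given in the closing section.

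The 2 remaining tested PCDHG genes did not pass. PCDHGA10 had 32.9, 31.8 and 10.5 in KYSE70 and 40.6, 29.4 and 21.7 in NRF2null-KYSE70 (adjusted p = 0.501, limma). PCDHGA9 had 8, 19.1 and 8.44 against 20.3, 9.81 and 9.13 (adjusted p = 0.836, limma). The values of both genes overlapped between the lines. The other 16 PCDHG genes were below the minimum, and all of them had at least 1 read in the series. Among those, PCDHGA2 had no read in KYSE70 and 16 over NRF2null-KYSE70, at least 1.96-fold higher by the same floor, and PCDHGA12 and PCDHGA6 had means of 8.03 and 7.41. Without PCDHGC3 the PCDHG sum was 134 ± 29.9 (SD, n = 3) in KYSE70 and 173 ± 31.6 in NRF2null-KYSE70, which differed by little more than 1 SD.

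PCDHB genes, each a single exon with its own promoter, were low in both lines and none of the 3 tested passed. PCDHB14 had normalized counts of 58.7, 59.9 and 39 in KYSE70 and 29.4, 37.3 and 58.2 in NRF2null-KYSE70, with a log2 fold change of -0.36 (adjusted p = 0.37, limma). PCDHB13 had 69.4, 50.8 and 28.5 against 31.4, 32.4 and 34.3 (log2 fold change -0.50, adjusted p = 0.244, limma). In both genes the groups overlapped, and the KYSE70 libraries of PCDHB13 spread by more than the distance between the means. PCDHB11 had 2.67, 19.1 and 29.5 in KYSE70 and 23.3, 39.2 and 7.99 in NRF2null-KYSE70, which overlapped (adjusted p = 0.488, limma). It has an annotated gene on the opposite strand, and the sources used here do not state whether counting used strand.

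PCDHB16, the most abundant PCDHB gene below the minimum, had 4.45, 6.35 and 12.7 in KYSE70 and 8.11, 18.6 and 3.43 in NRF2null-KYSE70. The other 12 PCDHB genes had means of 5.93 or less, and PCDHB1 had no read. Summed over the 16 genes, the PCDHB level was 162 ± 26.3 (SD, n = 3) in KYSE70 and 141 ± 19.9 in NRF2null-KYSE70, a difference under 1 SD of KYSE70. Variable exons of clustered protocadherins resemble each other, and how reads with several alignments were counted is not given in the sources used here. Levels of single clustered genes are therefore uncertain to that extent. Reads of the constant exons were not added to every gene, since PCDHGA3 was at 0 in 5 of 6 libraries while PCDHGC3 had at least 743 reads in each.

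Non-clustered members held most protocadherin reads, and they moved in different directions. PCDH7 (ENSG00000169851, hg38 chr4:30720369-31146805), an adhesion protein of the delta-1 subfamily with a cytoplasmic tail that binds PP1α, had normalized counts of 1385, 1293 and 1252 in KYSE70. NRF2null-KYSE70 had 193, 166 and 191, a ratio of the means of 0.14. The lowest KYSE70 library was far above the highest of the other line, and the log2 fold change was -2.83 ± 0.102 (SE, adjusted p = 2.35e-10, limma). PCDH7 went from 33.2% to 35.2% of the non-clustered reads to 4.27% to 4.89%.

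PCDH18 (ENSG00000189184, chr4:137518918-137532494), of the delta-2 subfamily, had 858, 801 and 772 in KYSE70 and 1560, 1451 and 1483 in NRF2null-KYSE70. PCDH1 (ENSG00000156453, chr5:141853090-141879246), a protocadherin of airway and skin epithelium, had 607, 656 and 543 against 1103, 1137 and 984. In both genes all NRF2null-KYSE70 libraries were above all of KYSE70. The log2 fold changes were 0.89 ± 0.0733 for PCDH18 (adjusted p = 4.45e-07, limma) and 0.84 ± 0.0944 for PCDH1 (adjusted p = 7.66e-06, limma), each short of 2-fold.

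PCDH19 (ENSG00000165194), which is mutated in an epilepsy of early childhood, had 1298, 1114 and 972 in KYSE70 and 1649, 1064 and 1235 in NRF2null-KYSE70. The groups overlapped (log2 fold change 0.21, adjusted p = 0.229, limma). The summed non-clustered level was 3873 ± 306 (SD, n = 3) in KYSE70 and 4080 ± 377 in NRF2null-KYSE70, a difference under 1 SD, so the fall of PCDH7 stood beside rises of PCDH1 and PCDH18 at a similar total.

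Below the minimum, PCDH11X had 10.7, 11.8 and 2.11 in KYSE70 and no read in NRF2null-KYSE70, at least 2.72-fold lower by the floor of 3 reads per library. With no minimum it passed (log2 fold change -2.95, adjusted p = 0.00347, limma). It then entered the test through KYSE70 only and so had to differ, and that result adds no support. Its near-identical copy PCDH11Y can share its reads, and PCDH11X was singled out after its values were seen. PCDH9 had 27 reads over KYSE70 and 8 over NRF2null-KYSE70, with values that overlapped. PCDH8, PCDH10, PCDH12 and PCDH17 had from 1 to 10 reads over each line, and the remaining members, PCDH15 and PCDH20 among them, had none. Only 446 of the 5105 exonic bases of PCDH20 are covered by no other annotated gene, so its lack of reads is uncertain.

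Levels between members were compared per kb of exonic sequence that no other annotated gene covers. PCDHA1 was left out of this order, since only 7 bases of it are unshared. On that scale PCDHGC3 was the highest in KYSE70, at 243 ± 9.63 normalized counts per kb (SD, n = 3), followed by PCDH18 at 121 ± 6.57, PCDH19 at 116 ± 16.7, PCDH1 at 102 ± 9.55 and PCDH7 at 102 ± 5.28. Apart from PCDHGC3, each of these overlapped its neighbour in the order. In NRF2null-KYSE70 the order was PCDHGC3 at 315 ± 45.4, PCDH18 at 224 ± 8.36, PCDH1 at 181 ± 13.6, PCDH19 at 135 ± 30.8 and PCDHAC2 at 51.5 ± 11.5, ahead of PCDHGB7 at 19.7 ± 6.72 and PCDH7 at 14.2 ± 1.16. The libraries of PCDH1 and PCDH19 overlapped, as did those of PCDHGB7 and PCDH7, whereas the other neighbours did not.

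The genes around the clusters on 5q31 were examined for comparison. Of 28 tested protein-coding genes within 1 Mb of the clusters other than protocadherins, 5 rose and 4 fell at an adjusted p under 0.05 (limma). Of all tested genes, 29.3% rose and 28.3% fell by this rule. The median log2 fold change of the 28 was 0.00, and 1 gene changed by over 2-fold. That gene was SPRY4, an inhibitor of receptor tyrosine kinase signalling, at 2.98 ± 0.0868 (SE, adjusted p = 3.59e-11, limma). TAF7, a subunit of TFIID that lies between the PCDHB and PCDHG clusters, had means of 9149 ± 191 and 8692 ± 474 (SD, n = 3) in KYSE70 and NRF2null-KYSE70, which overlapped (adjusted p = 0.225, limma). SLC25A2, next to it, had a read in 1 library only. With genes under a mean of 50 left out, the median log2 fold change of protein-coding genes on 5q was 0.118 (429 genes), against 0.107 on 4p and 0.146 on 4q, where PCDH7 and PCDH18 lie. DNA copy number was not measured.

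**Figure D4:**
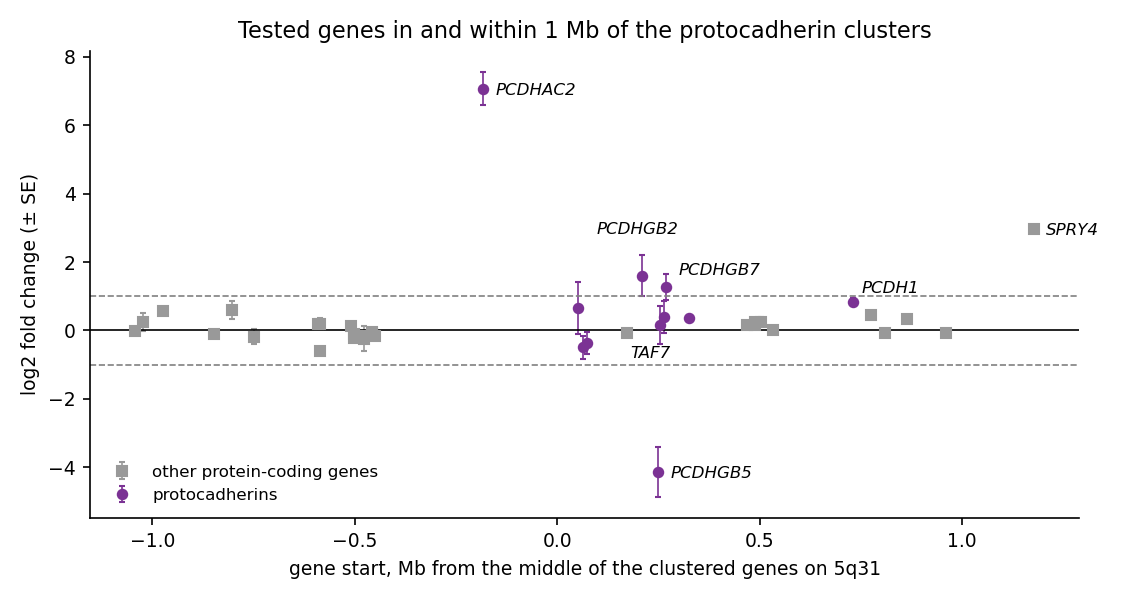
Log2 fold change (NRF2null-KYSE70 over KYSE70, with the SE as bars) of 39 tested genes in or within 1 Mb of the clusters, against the distance of their start from the middle of the clustered genes in Mb. PCDHAC2 and PCDHGB5 lie furthest from 0, at 7.07 and -4.13, among non-protocadherin neighbours that all lie within 2-fold except SPRY4.

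Known regulators of the clusters were counted as lists. Of all tested genes, 29.3% rose and 28.3% fell at an adjusted p under 0.05 (limma). Both thresholds were passed by 7.23% upward and 7.43% downward. Counts in this and the following lists, markers included, are to be read beside these shares and were not tested against them. Of 11 CTCF and cohesin genes, all tested, 4 rose and 2 fell at an adjusted p under 0.05, each by less than 2-fold (limma, median log2 fold change 0.10). CTCF, which binds protocadherin promoters and their enhancers, was at -0.45 (adjusted p = 4.2e-05, limma) and the cohesin subunit RAD21 at 0.48 (adjusted p = 1.06e-06, limma). Of 7 genes of DNA methylation, 1 rose and 4 fell (median -0.36), and TET1, which oxidizes methylcytosine, passed both thresholds at -1.07 (adjusted p = 2.33e-05, limma). The de novo methyltransferase DNMT3B was at -0.55 (adjusted p = 0.000359, limma), while DNMT3A (0.18, adjusted p = 0.154) and the maintenance enzyme DNMT1 (0.02, adjusted p = 0.824) did not pass. Of 7 genes of cluster silencing, 1 rose and 3 fell, each by less than 2-fold (median -0.08), and SMCHD1, which silences clustered protocadherins, was at 0.10 (adjusted p = 0.237, limma).

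Proteins that act with protocadherins at the membrane were counted next. Of 10 partner and kinase genes, 3 rose and 6 fell at the adjusted p (median log2 fold change -0.25), and 2 were called higher, both kinases that clustered protocadherins inhibit or bind. PTK2, the gene of focal adhesion kinase, was at 1.06 (adjusted p = 7.04e-10, limma) and FYN, a Src family kinase, at 1.18 (adjusted p = 0.000174, limma). Of 9 tested WAVE complex genes, which link protocadherin tails to actin, 5 rose and 3 fell (median 0.17), and CYFIP2 was called lower at -1.21 (adjusted p = 1.2e-05, limma). Of 7 genes of the proteases that shed protocadherins, 3 rose and 1 fell (median 0.09). ADAM10, the sheddase, was called higher at 1.25 (adjusted p = 2.65e-09, limma), as was APH1B, a gamma-secretase subunit, at 1.44 (adjusted p = 4.92e-08, limma).

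The rest of the cadherin superfamily was set beside the protocadherins. Of 13 tested classical and related cadherins, 6 rose and 3 fell at the adjusted p, and 4 were called higher and 2 lower by limma (median log2 fold change 0.30). CDH2 (N-cadherin) went from 5152 ± 306 to 12690 ± 1481 normalized counts (SD, n = 3), and CDH4, CDH11 and CDH18 were called higher at 1.03, 1.04 and 2.77. CDH6 went from 64.2 ± 18.8 to no read, at least 20.6-fold lower, and CDH23, of the inner ear, was at -1.11. CDH6 reached the minimum mean through KYSE70 only and so had to differ. Of 7 tested FAT, Dachsous and Flamingo genes 3 rose, and FAT1 was called higher at 1.03 (adjusted p = 6.24e-06, limma, median 0.15). Of 4 tested genes among the other members of the superfamily 3 rose, and CDHR3 was called higher at 1.38 (adjusted p = 0.0166, limma, median 0.73).

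The labels were checked against NFE2L2 and cell type markers. NFE2L2 RNA was lower but present in NRF2null-KYSE70 (9928 ± 102 against 6093 ± 319, SD, n = 3, log2 fold change -0.71, adjusted p = 9.37e-08, limma), and this value does not measure the protein. All 12 squamous epithelial markers were tested, with sums of 367300 to 375600 in KYSE70 and 270100 to 282400 in NRF2null-KYSE70. Of these, 5 rose and 7 fell at the adjusted p, with a median log2 fold change of -0.53. The largest falls, of SFN at -0.93 and TP63 at -0.92, were under 2-fold. KRT14, with means of 46.4 in KYSE70 and 156 in NRF2null-KYSE70, was called higher at 1.74 (adjusted p = 0.000316, limma). Of 12 neuronal markers 5 were tested, and their sum moved with the line, from 102300 to 106600 in KYSE70 to 26790 to 28560 in NRF2null-KYSE70, mostly through NEFL at -3.20. NEFM and SYT1 were called lower at -2.20 and -1.70, and MAP2 higher at 1.01. Of 8 fibroblast markers 3 were tested, with sums of 3851 to 3973 and 3039 to 3454, and COL1A1 and COL3A1 were called lower at -1.16 and -4.79. COL3A1 reached the minimum mean through KYSE70 only and so had to differ. THY1, the other tested marker, rose (0.15, adjusted p = 0.0463, limma). PDGFRB, under the minimum, had no read in KYSE70 and 12, 15 and 14 reads in the NRF2null-KYSE70 libraries. Of 7 endothelial and immune markers 2 were tested, VWF at 1.28 and PTPRC at 5.13, with sums of 152 to 157 and 315 to 495. PTPRC had 1 read over KYSE70 and 125 over NRF2null-KYSE70, so it reached the minimum mean through 1 line only and had to differ. CD79A, under the minimum, went the other way, with 34 reads over KYSE70 and 1 over NRF2null-KYSE70. The part of these markers in the protocadherin differences was not tested.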

How the data were processed

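RNA-seq libraries were compared between 2 cell lines, with 3 libraries per line. Per the labels and the study's methods, libraries were made from total RNA. By the same sources, the authors aligned reads with STAR 2.6.90c to hg38, counted them per gene with featureCounts 1.5.1 and normalized the counts with DESeq2. The deposited values are a signal in normalized counts, that is, gene read counts scaled by a size factor for each library. Column names give the line without a replicate number, and libraries are numbered in column order within a line. Whole reads were recovered for 100% of values (tolerance 0.1 reads), which gave 52072801 to 63975313 reads per library. Within each line, no pair of libraries agreed within sampling noise (chi-square per degree of freedom 4.59 to 23.4), so each counted as its own sample. The labels do not say that libraries came from separate cultures, and p-values then measure only the spread between these samples.

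Differential expression was tested with limma 3.58.1 (mean-variance trend, two-sided) on log2(normalized count + 1), a scale that understates changes of low genes, for 15994 genes with a mean of at least 10. A gene was called at a Benjamini-Hochberg adjusted p under 0.05 if it also changed by at least 1 on the log2 scale in either direction. edgeR 4.0.16 and DESeq2 1.42.0 were run on the recovered reads as alternatives. Folds against a line at 0 used a floor of 3 reads per library, and intervals and floors cover counting error only. Positions are from GENCODE v44 and promoters from RefSeq, both on hg38. PCDHA14 and PCDH8P1, annotated as pseudogenes, were left out.

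Members, lists and tests were chosen with earlier results of these data known. Values in every library are given for each called member and the 15 members with the highest mean. Of the other lists, called genes are named, with CTCF, RAD21, SMCHD1, DNMT1, DNMT3A and DNMT3B whatever their result. Other named members and markers were chosen after their values were seen.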

Additional observations from a re-analysis of the deposited data

How the results depend on the processing

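PCDHAC2 and PCDH7 were called under all 18 alternatives run, and PCDHGB5 under all 17 in which it was tested. PCDHAC2 and PCDHGB5 reached the minimum mean through 1 line only and so had to differ, and their repeated calls add no support. With a minimum mean of 50, 1 member was called higher, 1 lower and 1511 genes in all, since fewer genes were tested. Without the fold cut-off, 6 members were called higher and 9206 genes in all, where 2344 were called with it. Leaving out 1 library in turn gave 1 to 3 members called higher, and 1 (PCDHAC2) without NRF2null-KYSE70 library 3. PCDHGB7 was called in 15 of 17 settings and PCDHGB2 in 10 of 17, with adjusted p from 0.00752 to 0.15. PCDHGB2 was lost with no minimum (0.0704), without the trend (0.0862), after subtracting the median of its chromosome arm (0.0501), and without KYSE70 library 1 (0.0891) or 2 (0.127) or NRF2null-KYSE70 library 1 (0.0518) or 3 (0.15). With no minimum, 4 members were called higher and 3 lower, with PCDHAC1, PCDHGA2 and PCDH11X among them. PCDHAC1, PCDHGA2 and PCDH11X had reads in 1 line only and so had to differ, and their calls add no support. With 1 library left out in turn, the log2 fold changes of PCDHGA10 (-0.12 to 0.65), PCDHB11 (-0.26 to 1.27) and PCDHGA9 (-0.19 to 0.52), which did not pass, took either sign. Total scaling moved the median of all genes to -0.08 and no member's call. For the PCDHB, PCDHG and non-clustered sums, total scaling and leaving out each library, both chosen after seeing the data, moved the ratio of the means by less than its SD propagated from the replicates. The PCDHA ratio, with 1 read in KYSE70, was not recomputed. No paired analysis was possible because the columns carry no replicate numbers. Of the 66 members, 52 lay under the minimum mean and were not tested.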
